A study of Mus musculus with 4 samples.

Results

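The dual-specificity MAP kinase phosphatases examined here are Dusp1, Dusp2, Dusp4, Dusp5, Dusp6, Dusp8, Dusp10, Dusp14 and Dusp16. They were taken as every probe set of the array whose annotation names 1 gene and that gene is on this list, which gave 13 probe sets for 9 genes, of 18193 genes and 45037 probe sets in all. The cells were mouse bone marrow-derived macrophages, cultured for 7 days with 20% conditioned medium of L cells, which supplies M-CSF. All cells had been primed with interferon-gamma at 100 U/ml, overnight per the labels, which for the LPS group also give 16 h, and then washed. The type II group then received lipopolysaccharide (LPS, which engages the receptor TLR4) at 10 ng/ml and immune complexes, clusters of antigen and antibody that cross-link Fc gamma receptors. The classical group received LPS at 10 ng/ml alone. Both were stimulated for 2 h, and each group had 2 arrays. The labels give no mouse strain, age, antigen or antibody, no array of unstimulated cells was analysed here, and nothing says that the 2 arrays of a group came from separate cultures, so p-values reflect only how these 4 arrays spread, possibly for technical reasons. In a bulk sample, fewer cells of a type and less RNA per cell cannot be told apart.

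MAP kinases relay receptor signals to transcription through the ERK, p38 and JNK branches, and each is switched on by phosphorylation of a threonine and a tyrosine in its activation loop. Dual-specificity phosphatases remove both phosphates and so end the signal, and most of them are themselves transcribed in response to it, which makes them a feedback brake. In macrophages LPS switches on all of these branches, and cross-linking of Fc gamma receptors is known to activate ERK. Dusp5 and Dusp6 favour ERK, in the nucleus and the cytoplasm in that order. Dusp1, Dusp8, Dusp10 and Dusp16 favour p38 and JNK. Dusp2 and Dusp4 are nuclear enzymes that act on ERK and also on p38 or JNK, and Dusp14 is a small atypical member without the kinase-binding domain.

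The sequences 250 bases upstream of the annotated start are shown for Dusp5, Dusp10, Dusp1 and Dusp2, since in the readings that follow Dusp5 and Dusp10 were higher with immune complexes, Dusp1 differed little and Dusp2 was lower. They are from RefSeq (GRCm38.p6) and run 5′ to 3′ on the gene's strand. Dusp5 is at chr19:53528895-53529144 (plus strand), Dusp10 at chr1:184034131-184034380 (plus), Dusp1 at chr17:26508473-26508722 (minus) and Dusp2 at chr2:127335909-127336158 (plus). Capitals mark the CArG box, which serum response factor is known to bind, the cAMP response element TGACGTCA and the E-box CACGTG.
Dusp5: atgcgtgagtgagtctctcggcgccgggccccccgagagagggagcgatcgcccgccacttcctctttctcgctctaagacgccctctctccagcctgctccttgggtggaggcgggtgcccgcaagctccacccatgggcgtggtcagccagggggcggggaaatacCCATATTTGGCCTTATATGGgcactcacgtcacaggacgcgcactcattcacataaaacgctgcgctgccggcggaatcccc
Dusp10: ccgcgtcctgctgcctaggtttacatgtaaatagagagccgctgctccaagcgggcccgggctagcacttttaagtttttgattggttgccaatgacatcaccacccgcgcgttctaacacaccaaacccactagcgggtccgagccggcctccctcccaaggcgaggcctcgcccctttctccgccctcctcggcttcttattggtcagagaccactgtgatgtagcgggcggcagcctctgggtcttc
Dusp1: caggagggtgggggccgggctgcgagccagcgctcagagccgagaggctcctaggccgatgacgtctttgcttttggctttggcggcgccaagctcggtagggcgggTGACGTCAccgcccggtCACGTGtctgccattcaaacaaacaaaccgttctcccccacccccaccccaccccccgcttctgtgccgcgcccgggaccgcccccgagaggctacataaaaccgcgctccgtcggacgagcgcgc
Dusp2: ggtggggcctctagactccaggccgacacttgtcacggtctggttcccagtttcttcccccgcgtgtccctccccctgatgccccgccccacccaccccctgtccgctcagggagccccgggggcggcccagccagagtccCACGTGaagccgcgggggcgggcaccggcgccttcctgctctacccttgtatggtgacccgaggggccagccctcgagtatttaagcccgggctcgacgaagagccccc
Of the 9 genes 8 were found in the sequence table, and Dusp4 was not. The windows of Dusp8, Dusp14 and Dusp16 lie inside the annotated span of their gene, so they precede a start within the gene and not its outer end. The Dusp5 window held 2 CArG boxes, CCATATTTGG and CCTTATATGG, which lie end to end from 82 to 63 bases before the start. A CArG box stood in 1.47% of the 32851 promoter windows of the same length, and 2 or more stood in 0.018%. No other phosphatase window held one. The full cAMP response element stood once in the Dusp1 window and at 2 places in that of Dusp8, and in 1.55% of all windows, with 2 or more in 0.030%. The E-box was in the Dusp1 and Dusp2 windows and in 6.02% of all windows. Both strands were searched for 11 motifs. None of the 8 windows held the AP-1 motif TGANTCA (6.75% of all windows), the EGR motif GCGTGGGCG (0.536%), the ETS motif CCGGAAGT (2.88%) or TATAAA (12.4%). The STAT motif TTCNNNGAA was in the Dusp14 window alone among the 8, and in 7.02% of all. A loose NF-kB consensus was in 45.8% of windows and matched in Dusp1, Dusp2, Dusp5, Dusp6, Dusp10 and Dusp14, in Dusp5 overlapping the start of the first CArG box. The GC box GGGCGG (32.7%) was in every window but that of Dusp6, and TGACG, the core within the cAMP element (17.8%), in Dusp1, Dusp5, Dusp8 and Dusp16. A match is a run of letters and was not shown to be a bound site.

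Signals are MAS 5.0 intensities, with a trimmed mean of 500 on every array. The first array of LPS plus immune complexes stood apart at the dim end: its median signal was 155.4 and its 5th percentile 28.1, against medians of 68.2 to 88.3 and 5th percentiles of 3.3 to 7.9 on the other 3 arrays. The macrophage markers Csf1r, Cd68, Itgam, Adgre1, Lyz2, Cd14 and Fcgr1 all passed the filter on low signals, with mean signals of 1307.3 to 37096.2. The highest reading of any T cell, B cell or fibroblast marker was 335.8, and that of any dendritic cell marker 544.8, for Itgax. The 7 neutrophil markers summed to 1575.3 and 1580.1 with LPS plus immune complexes, and to 959.7 and 1012.7 with LPS. S100a8 was the brightest of them, with means of 1004.4 with immune complexes and 522.8 with LPS. Elane, Ngp and S100a9 also had higher means with immune complexes, while Mpo, Camp and Ltf had lower ones, so the list did not move as 1. The part of the difference in the sums in the results was not tested.

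The question was which phosphatases, by the kinase they favour, differ between macrophages given immune complexes with LPS and those given LPS alone. Dusp4, Dusp10 and Dusp5 read 3.20, 2.96 and 2.66-fold higher with immune complexes on the log2(signal + 32) scale, Dusp2 read lower, and Dusp1 and Dusp16 lay close to their LPS readings. The 3 higher genes fall in different classes of substrate, as Dusp5 favours ERK, Dusp10 favours p38 and JNK, and Dusp4 acts on more than one. None of the 9 genes passed limma's Benjamini-Hochberg adjusted p of 0.05 over all 27022 tested probe sets, and of all tested genes 8, or 0.0621%, passed (0.0518% of probe sets). The log2 fold change was above 0 for 6 of the 9, against 54.1% of all tested genes. The 6 include Dusp6, which passed the filter because of its arrays with immune complexes. They also include Dusp8 and Dusp14, whose signs changed when 1 array was left out, so the count is no support. At an unadjusted limma p under 0.05, 3 of the 9 were higher, against 1.99% of all tested genes, and 1 was lower, against 1.14%. The 9 genes were chosen with earlier results of these data known, so these shares are no support for a change of the family.

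**Figure D1:**
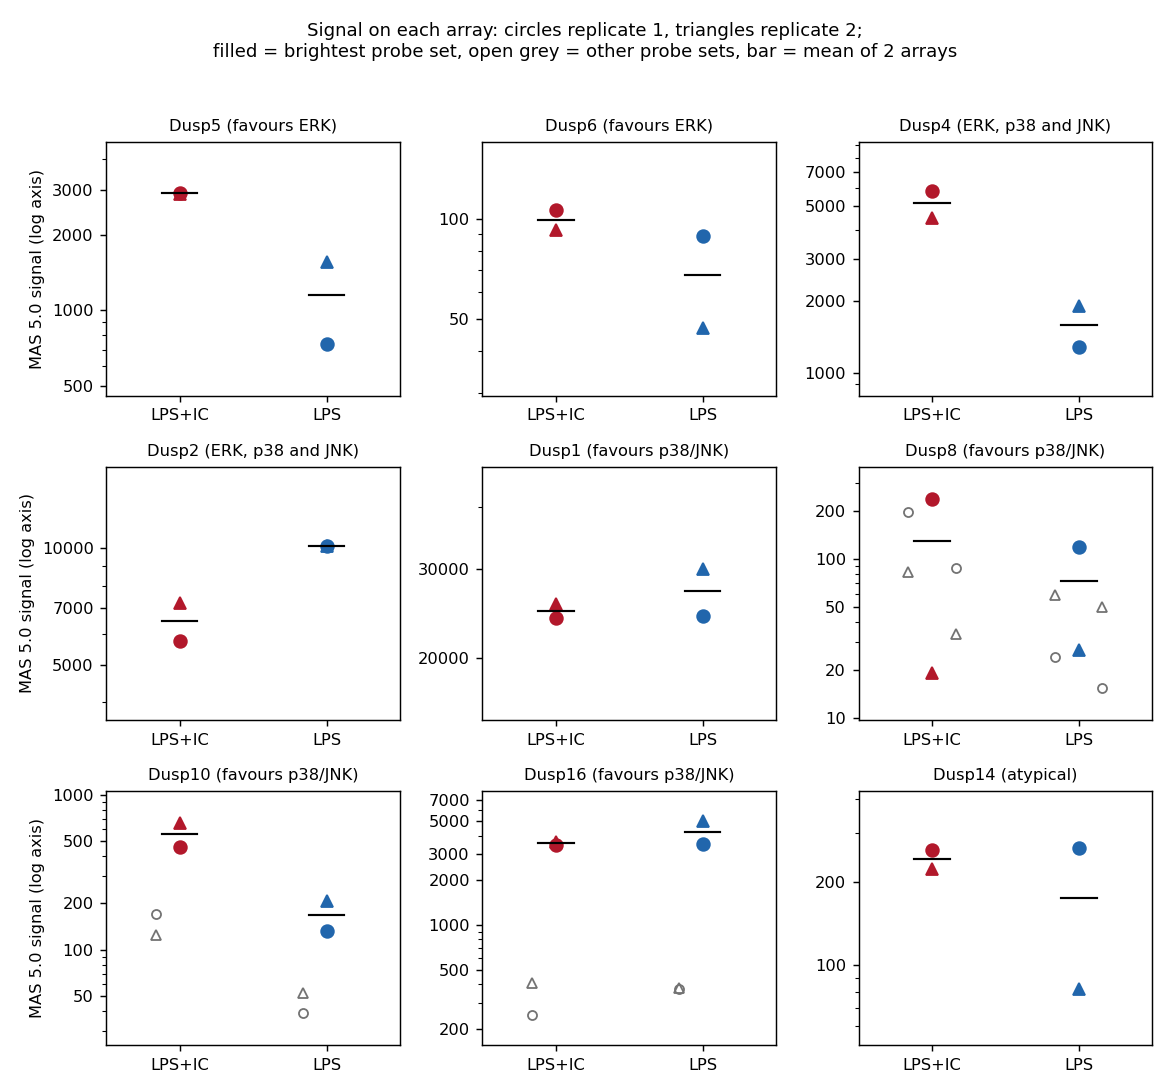
MAS 5.0 signal of every phosphatase probe set on each array (log axis), with LPS plus immune complexes on the left and LPS on the right of each panel. Circles are replicate 1 and triangles replicate 2, filled points are the brightest probe set of a gene, open grey points its other probe sets, and bars are means of 2 arrays. The groups stand apart for Dusp4, Dusp5, Dusp6 and Dusp10 on the higher side and for Dusp2 on the lower side, and overlap for the brightest probe sets of Dusp1, Dusp8, Dusp14 and Dusp16.

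Among the phosphatases that favour ERK, Dusp5 had signals of 2911.3 and 2907.1 with LPS plus immune complexes, against 735.9 and 1562.7 with LPS. Both arrays with immune complexes lay above both LPS arrays, and the LPS arrays differed from each other far more than the arrays with immune complexes did. The mean was 2909.2 ± 3.0 with immune complexes and 1149.3 ± 584.6 with LPS (SD, n = 2 each), a log2 fold change of 1.41 ± 0.41 (SE) with a limma 95% interval of 0.53 to 2.30 and adjusted p = 0.655. The size turned on the LPS arrays: the log2 fold change was 0.88 without LPS replicate 1 and 1.94 without LPS replicate 2, where limma's adjusted p was 0.011 in a fit that gave every probe set of like brightness the same spread. Dusp5 kept a positive log2 fold change in every setting tried. As its groups did not overlap, only quantile normalization and median centring could have changed that sign. In the unpaired fits with no array left out, its limma adjusted p ran from 0.206 to 1.

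Dusp6, the cytoplasmic ERK phosphatase, was dim, at 106.4 and 92.4 with LPS plus immune complexes and 88.9 and 47.0 with LPS. The groups did not overlap, but their nearest readings differed by a ratio of 1.04. Its mean with LPS, 68.0, lay below the filter of 69.7, so that the gene was tested because of its arrays with immune complexes. Its log2 fold change was 0.42 ± 0.78, and the 95% interval of -1.27 to 2.12 included 2-fold in both directions.

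Among the phosphatases that act on more than one kinase, Dusp4, which is nuclear, had signals of 5822.4 and 4476.3 with LPS plus immune complexes, against 1291.6 and 1912.4 with LPS. Every array with immune complexes was at least 2.34 times as bright as every LPS array, and at most 4.51 times. The mean was 5149.4 ± 951.8 with immune complexes and 1602.0 ± 439.0 with LPS (SD, n = 2 each). Its log2 fold change of 1.68 ± 0.35 (95% interval 0.92 to 2.44) was the largest of the 9, with the 56th lowest p-value of all tested probe sets and limma adjusted p = 0.208. Of the alternatives that took the arrays as unpaired, Dusp4 passed the threshold without LPS replicate 2 (1.96, limma adjusted p = 0.00294, in the same kind of fit) and with no filter on low signals (1.68, adjusted p = 0.0215). Its adjusted p in these fits ran from 0.00294 to 1, and its log2 fold change from 1.40 to 1.96.

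Dusp2, a nuclear phosphatase of activated leukocytes, read 5746.1 and 7220.6 with LPS plus immune complexes and 10143.3 and 10157.0 with LPS. It was the only one of the 9 genes with both readings below both LPS readings, a pattern that 13.1% of all tested genes showed. The LPS arrays agreed closely and the arrays with immune complexes spread more, with means of 6483.4 ± 1042.6 with immune complexes and 10150.1 ± 9.7 with LPS (SD, n = 2 each). The log2 fold change was -0.65 ± 0.28, the 95% interval -1.26 to -0.05 and limma's adjusted p = 1. Its sign was the same in every setting tried, with values from -0.85 to -0.49. As its groups did not overlap, only quantile normalization and median centring could have changed that sign. Dusp2 and Dusp4, which share a nuclear location and a broad range of substrates, thus had opposite signs here.

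Among the phosphatases that favour p38 and JNK, Dusp10 is the gene whose brightest probe set read higher on both arrays with immune complexes than on both LPS arrays. Its brighter probe set read 458.1 and 657.3 with LPS plus immune complexes, against 131.4 and 204.5 with LPS, ratios of 2.24 to 5.0 over the 4 pairs of arrays. The mean was 557.7 ± 140.9 with immune complexes and 167.9 ± 51.7 with LPS (SD, n = 2 each), and the log2 fold change 1.56 ± 0.45 (95% interval 0.59 to 2.54, limma adjusted p = 0.655). The dimmer Dusp10 probe set read 170.1 and 125.0 with immune complexes and 38.8 and 52.2 with LPS. The dimmer one had a log2 fold change of 1.21 ± 0.75 and, with an LPS mean of 45.5, was tested because of the arrays with immune complexes, so it is no second line of support. Of the brighter one's readings with immune complexes, 458.1 was on the first array, the one with raised dim signals, and 657.3 on the second. The part of that array in the difference was not tested.

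Dusp1, an immediate early gene and the best known brake on p38 and JNK in macrophages given LPS, read 24042.0 and 25663.5 with LPS plus immune complexes and 24236.7 and 30060.1 with LPS. The groups overlapped. The log2 fold change was -0.12 ± 0.23, and its 95% interval, -0.62 to 0.38, leaves out a difference of 2-fold in either direction. The sign depended on the scaling: it was -0.12 with the authors' scaling, 0.11 with quantile normalization and -0.32 with median centring.

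Dusp16, which shuttles between nucleus and cytoplasm and favours JNK, read 3480.3 and 3619.3 with LPS plus immune complexes and 3519.4 and 4998.9 with LPS by its brighter probe set. Its dimmer probe set read 248.8 and 407.9 with immune complexes and 372.0 and 375.7 with LPS. Both overlapped between the groups, with log2 fold changes of -0.24 ± 0.32 and -0.21 ± 0.44. The brighter probe set's 95% interval was -0.94 to 0.46, and without LPS replicate 2 its log2 fold change was 0.012.

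Dusp8, a phosphatase of JNK and p38 best known from brain, was dim and its 3 probe sets did not agree. The brightest read 238.5 and 19.1 with LPS plus immune complexes and 118.4 and 26.8 with LPS, so replicate 1 was the higher array within each group. A second probe set read 196.9 and 82.7 with immune complexes and 24.0 and 59.4 with LPS, and the dimmest, which fell below the filter and was not tested, read 87.2 and 33.4 with immune complexes and 15.4 and 49.4 with LPS. In all 3 the highest reading was on the first array with immune complexes, whose dim signals were raised throughout. The log2 fold changes were 0.32 ± 1.0 for the brightest probe set and 1.18 ± 0.84 for the second, which, with an LPS mean of 41.7, was tested because of the arrays with immune complexes. Without the first array with immune complexes they were -0.88 and 0.68, and without LPS replicate 2 the brightest was at -0.36, so its sign depended on single arrays.

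Dusp14, the atypical member, read 260.5 and 222.4 with LPS plus immune complexes and 266.3 and 82.3 with LPS. The groups overlapped, and the log2 fold change of 0.56 ± 0.56 rested on the low second LPS array. Without that array it was -0.13, and without the other LPS array it was 1.25.

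**Figure D2:**
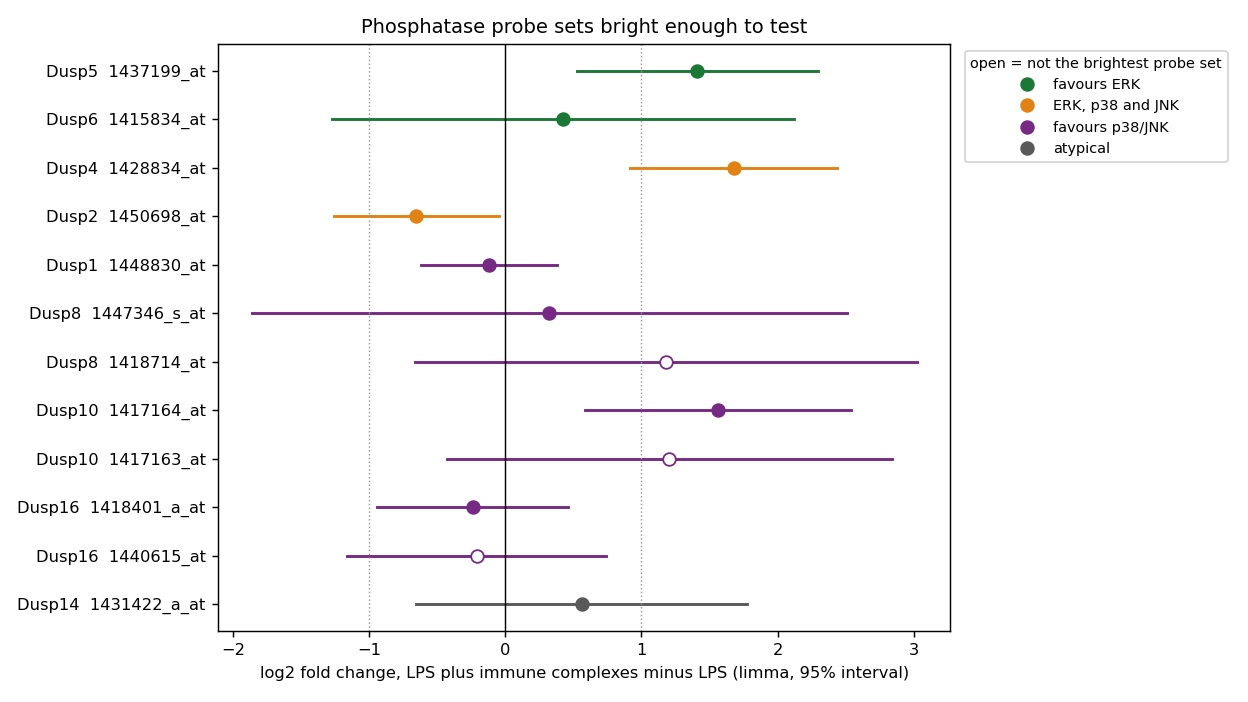
log2 fold change, LPS plus immune complexes minus LPS, of the 12 tested phosphatase probe sets, coloured by the kinase branch they favour. Points are limma estimates, lines 95% intervals, open points probe sets that are not the brightest of their gene, and dotted lines mark 2-fold. The intervals of Dusp5, Dusp4 and the brighter Dusp10 probe set lie above 0, that of Dusp2 lies just below 0, and those of Dusp6 and the brightest Dusp8 probe set include 2-fold in both directions.

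By substrate, the ERK class of 2 genes had log2 fold changes of 1.41 for Dusp5 and 0.42 for Dusp6, which was tested because of its arrays with immune complexes. The p38 and JNK class of 4 genes had a median of 0.10, with values from -0.24 to 1.56, and 1 of the 4 had groups that did not overlap. Of the 2 broad phosphatases 1 was higher and 1 lower, with values of 1.68 and -0.65. Over the 9 genes the median was 0.42, against 0.05 over the 12891 tested genes. That median is the value of Dusp6 itself, so it is no support. With 2 to 4 genes a class and 1 gene of the p38 and JNK class as high as Dusp5 and Dusp4, the classes overlapped, and no test of the difference between classes was made. Groups did not overlap on the higher side for 4 of the 9 genes, against 13.2% of all tested genes, but the count includes Dusp6, which passed the filter through its higher group and is no support. Dusp4 and Dusp10 were at least 2-fold higher in all 4 pairs on the log2(signal + 32) scale, against 0.783%, while 0 were 2-fold lower, against 0.186%. As the genes were chosen with earlier results of these data known, these counts only describe them.

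A factor applied to a whole array cannot change the log2 difference between 2 genes read on the same array, so the members were also set against Dusp1, the brightest of them, chosen after its values were seen. For this, log2 of the signal itself was used, without the constant added for the other log2 fold changes, which dampens dim probe sets. Relative to Dusp1, the log2 change was 1.86 for Dusp10, 1.82 for Dusp4 and 1.56 for Dusp5. The ranges over the 4 pairs of arrays were 1.49 to 2.24, 1.45 to 2.18 and 1.12 to 2.00, in that order. With the constant and without Dusp1, Dusp10 had 1.56 and Dusp4 1.68. Dusp1 is taken off every gene alike, so the place of Dusp10 above Dusp4 comes from the change of scale. For Dusp2 it was -0.54 relative to Dusp1, with a range of -0.81 to -0.26. Dusp4, Dusp5 and Dusp10 thus lay higher relative to Dusp1 with immune complexes in every pair of arrays, and Dusp2 lower. These are the same readings on another scale, so they add no separate support. The raised dim signals of the first array with immune complexes are not a factor of the whole array and do not cancel. Dusp16 differed from Dusp1 by -0.12, with a range of -0.24 to -0.004. The ranges included 0 for Dusp6 (-0.027 to 1.501), Dusp8 (-2.715 to 3.476) and Dusp14 (-0.342 to 1.985).

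**Figure D3:**
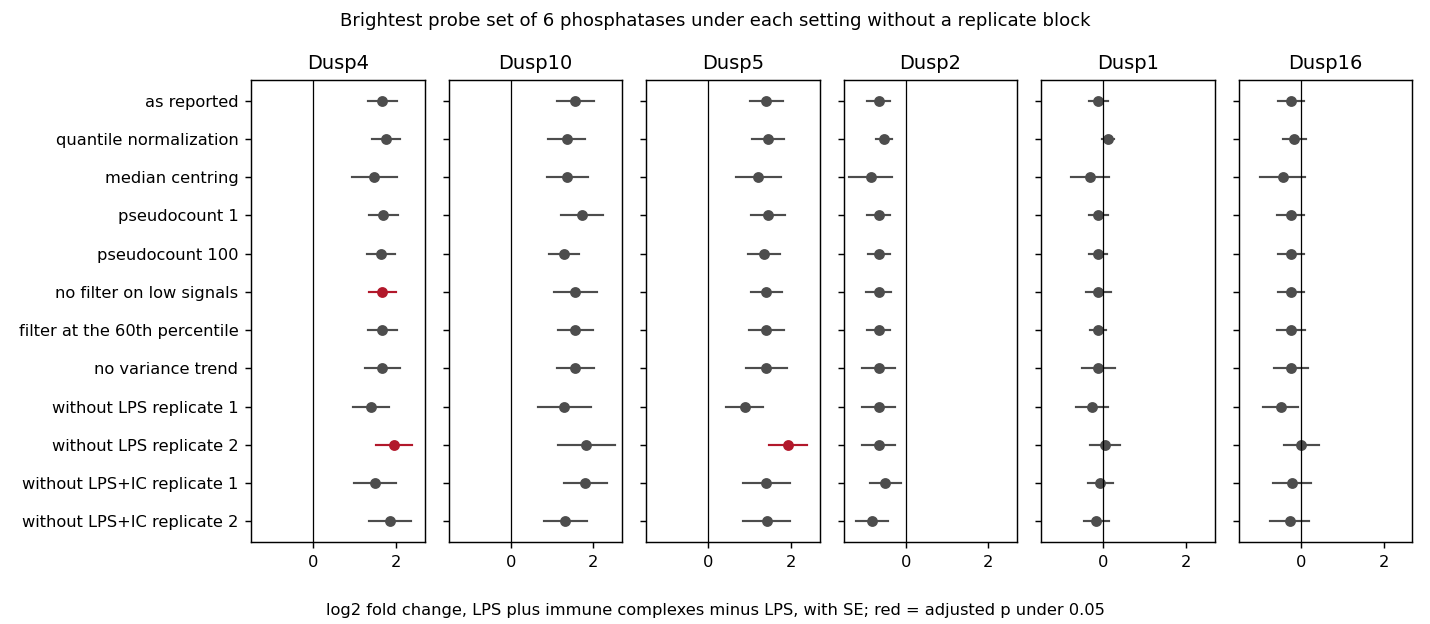
log2 fold change, LPS plus immune complexes minus LPS, with its SE, for the brightest probe set of 6 phosphatases under each setting that took the arrays as unpaired, with the reported fit at the top and red points past an adjusted p of 0.05. Dusp4, Dusp10 and Dusp5 stay above 0 and Dusp2 below 0 in all settings shown, while Dusp1 and Dusp16 lie on both sides of 0. The filter and trend settings leave the log2 fold change as it was and change only its SE.

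The 3 genes with a course over the 4 arrays most like that of Dusp4, out of 12882 other tested genes, were Zfp36l2, Usp2 and Snx30. Their log2 signals, centred on each gene's mean, differed from those of Dusp4 by a root mean square of 0.13, 0.15 and 0.16. Zfp36l2, a protein that binds AU-rich elements and speeds the decay of such mRNAs, read 5326.5 and 4568.0 with LPS plus immune complexes and 1522.7 and 1905.8 with LPS. That is a log2 fold change of 1.52 ± 0.33 (adjusted p = 0.225 in limma). Usp2, a ubiquitin protease, had 1.68 ± 0.44, and Snx30, a sorting nexin, 1.44 ± 0.41. Likeness over 4 arrays is a description and was not tested.

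The rest of the pathway was read from lists of the kinases, other phosphatases and targets. None of the 86 tested genes on these lists passed limma's adjusted p of 0.05 in either direction. The 13 tested of the 15 other dual-specificity phosphatases had a median log2 fold change of 0.07. The largest among them were Dusp21 (1.07 ± 0.92), Dusp26 (0.98 ± 1.26) and Dusp13 (0.71 ± 0.60), whose LPS means were 37.6, 30.5 and 145.1, and none reached an unadjusted p under 0.05. Dusp21 and Dusp26 were thus tested because of their arrays with immune complexes. Dusp26 and Dusp13 read 273.8 and 443.3 on the first of these arrays, against 10 and 131.2 on the second. Dusp7, the ERK phosphatase closest to Dusp6, read 1166.9 and 1525.5 with immune complexes and 783.4 and 916.0 with LPS (log2 fold change 0.64 ± 0.38), and was named after its values were seen.

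The 13 tested genes of the ERK cascade had values from -0.41 to 0.30 with a median of -0.09, and groups did not overlap for 0 of the 13, against 13.2% of all tested genes higher and 13.1% lower. Map3k8, the kinase that links TLR4 to ERK in macrophages, had the lowest value, -0.41 ± 0.46, and Sos2, an exchange factor for Ras, -0.38 ± 0.44. In the p38 cascade the median over 13 genes was -0.13, and groups did not overlap for 3, all lower. Map3k5, a stress-activated kinase upstream of p38 and JNK, was at least 2-fold lower in all 4 pairs. It read 1076.6 and 1223.7 with LPS plus immune complexes and 3152.4 and 3773.3 with LPS, or -1.56 ± 0.34 in log2 fold change (adjusted p = 0.232 in limma). Rps6ka5, a nuclear kinase that p38 and ERK activate, had -1.10 ± 0.41, and Mapk11, a dim p38 gene, 0.77 ± 1.26. Mapk11 read 230.3 and 7.9 with immune complexes and 22 and 34.5 with LPS. Its LPS mean was 28.2, so it was tested because of its first array with immune complexes. In the JNK cascade the median over 10 genes was -0.01, and groups did not overlap for 4, all higher. Map3k4 had 1.16 ± 0.49 and Jun, the transcription factor JNK phosphorylates, 1.03 ± 0.41, while Map3k11 had -0.88 ± 0.50.

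Other brakes on the pathway had a median of -0.23 over 15 tested genes, with 11 below 0. Spry2, an inhibitor of receptor signals to ERK, read 1160.6 and 463.3 with LPS plus immune complexes and 391.3 and 370.2 with LPS, so that its value of 0.90 ± 0.47 rested mainly on the first array with immune complexes. Spry4 had -0.93 ± 0.82 and, with a mean of 62.9 with immune complexes, was tested because of its LPS arrays. Ptpn5 had 0.75 ± 0.71, with readings of 369 and 74.5 with immune complexes and 66.5 and 120.7 with LPS. The list of immediate early genes and other factors downstream of MAP kinases had a median of 0.80 over 16 tested genes, the highest of these lists, with 12 above 0. It holds Srf, Elk1, Elk3 and Elk4 beside the immediate early genes. Fosl1, a partner of Jun in AP-1, read 1053.2 and 609.5 with immune complexes and 201.8 and 180.7 with LPS, a log2 fold change of 1.90 ± 0.44. Fosb had 1.54 ± 0.60. Ier2 went the other way, at -1.52 ± 0.35, with readings of 1485.3 and 1143.8 with immune complexes and 4399.7 and 3267.6 with LPS. Among 6 proteins that bind AU-rich elements, a motif also found in the Dusp1 mRNA, the median was 0.13, and beside Zfp36l2 the values were 0.42 ± 0.32 for Zfp36l1 and -0.54 ± 0.56 for Khsrp.

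**Figure D4:**
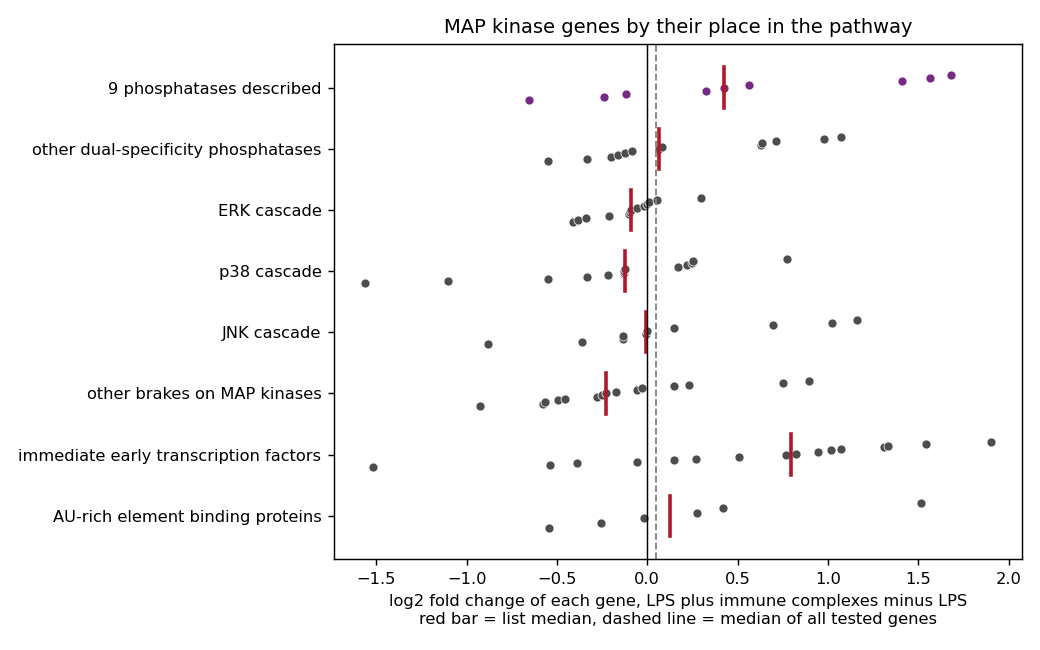
log2 fold change, LPS plus immune complexes minus LPS, of each tested gene by list, with the 9 phosphatases at the top. Red bars are list medians and the dashed line is the median of all tested genes, 0.05. The phosphatases spread from -0.65 to 1.68 while the ERK cascade stays between -0.41 and 0.30, and no gene shown passed the adjusted threshold.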

How the data were processed

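Biotin-labelled RNA was read on mouse Affymetrix arrays. The authors deposited linear intensities for each probe set, and the submitters' processing notes name MAS 5.0. The trimmed mean, without the lowest and highest 2%, was 500 on all 4 arrays, as scaling each array as a whole gives. There were no detection calls. Genes were named from GEO's annotation of the array, in which 34945 probe sets name 1 gene, and the 9 gene IDs matched RefSeq's table of GRCm38.p6.

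From the intensities, log2(signal + 32) was taken, a scale on which fold changes of dim probe sets come out too small. The 64 controls and probe sets with a mean signal under the 40th percentile were dropped, and 27022 probe sets of 12891 genes and of unnamed transcripts were tested. The difference between the groups was fitted with limma 3.58.1 under R 4.3.3 (lmFit, then eBayes), with a variance trend, no block and Benjamini-Hochberg adjustment over all tested probe sets. The brightest tested probe set stood for a gene. The fit was tested on simulated data, where the share of false calls averaged above the nominal threshold. The number of arrays limits the precision. Other scalings, pseudocounts, filters, no trend, a replicate block and leaving out each array were tried, and quantile normalization with the block was added after seeing the data.

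All members were named with every probe set. From each list the up to 3 largest values and any gene at least 2-fold apart in all 4 pairs were named, and for likeness the 3 genes nearest to the phosphatase with the largest change. The value of 1 gene of the ERK cascade that this rule names is not reported here. The members, classes and lists were chosen with earlier results of these data known. The replicate numbers were not taken as pairs, since the labels do not say that they mark a shared culture or day.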

Additional observations from a re-analysis of the deposited data

How the results depend on the processing

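A change of filter, no variance trend or a replicate block leaves a log2 fold change as it was here, so values under those settings could not change sign. The signs of Dusp2, Dusp4, Dusp5 and of both Dusp10 probe sets were the same in every alternative that tested them. Their groups did not overlap, so another pseudocount or leaving out 1 array could not change these signs either. Only quantile normalization and median centring could have done so. With those fixed values counted in, 144 of 152 alternative values of the phosphatase probe sets kept their sign. The exceptions were Dusp1 (0.11 with quantile normalization, with or without the replicate block, and -0.27 to 0.035 without 1 array), the brightest Dusp8 probe set (-0.88 to 1.52 without 1 array), Dusp14 (-0.13 to 1.25) and Dusp16 (-0.49 to 0.012 for the brighter and -0.53 to 0.12 for the dimmer probe set), and the cause was not tested. No phosphatase passed with quantile normalization, median centring, a pseudocount of 1 or 100, the 60th percentile as filter (7 of the 9 genes tested), no variance trend or an adjusted p under 0.1. With no filter 1 passed, Dusp4, without 1 array 0 to 2, the 2 being Dusp4 and Dusp5 without LPS replicate 2, and with the replicate block 4, namely Dusp2 (adjusted p = 0.0128), Dusp4 (2.09e-11), Dusp5 (2.3e-06) and Dusp10 (0.00404). The same 4 passed with quantile normalization and the replicate block. The prior degrees of freedom were infinite with the block, with median centring and without either LPS array, so a gene's own spread did not count in those fits. Same-numbered arrays had deviations from their group means that correlated at 0.38 over probe sets, with only 2 numbers. Arrays with the same number correlated at 0.908 and 0.965, against 0.886 for the pair with immune complexes and 0.933 for the LPS pair. Genes of the pathway lists that passed were 2 with no filter, 0 to 3 without 1 array, 11 with the replicate block and 15 with quantile normalization and the block, against 0. Over all probe sets 14 passed, 12 of them higher (85.7%), against 0 with quantile normalization, 47 with median centring (70.2% higher), 23 and 6 with a pseudocount of 1 and 100, 89 with no filter, 4 at the 60th percentile, 0 with no trend, 671 with the replicate block, 910 with quantile normalization and the block (59.2% higher), 37 at an adjusted p under 0.1, and 0 to 109 without 1 array. At an unadjusted p under 0.05 limma had 525 higher and 300 lower with quantile normalization and 476 and 143 with no trend. The median log2 fold change of all probe sets was 0.07, and -0.13 with median centring. Dim signals limit Dusp6, Dusp8 and the dimmer Dusp10 probe set. With 1 array left in a group, its spread was taken from the other group.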
